A study of Rattus norvegicus with 6 samples.

Results

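The miR-124 and miR-9 strands of the rat trigeminal ganglion were followed 14 days after a nerve injury. Every row of the deposited miRNA count table whose name has the stem miR-124, miR-9a or miR-9b was taken, with any arm suffix. This gave 5 of 650 miRNAs: rno-miR-124-3p, rno-miR-124-5p, rno-miR-9a-5p, rno-miR-9a-3p and rno-miR-9b-5p, written below without the species prefix. The injured group was Sprague-Dawley rats, 8 to 10 weeks old, whose left infraorbital nerve was chronically constricted with loose silk ligatures (CCI-ION, 3 libraries). The control group was rats of the same strain and age with a sham operation, in which the left nerve was exposed and not ligated (3 libraries). Both groups thus had surgery on the nerve, and small RNA was read from the ganglion of the operated side. The labels do not say whether a library holds 1 animal or several, or whether libraries come from separate animals. The p-values therefore reflect library-to-library spread, part of which may be technical. Those of the fits also draw on spread pooled over the tested miRNAs.

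miRNAs are short RNAs cut from the arms of a hairpin. One strand enters an Argonaute protein and represses mRNAs that pair with its bases 2 to 8, the seed, and the partner strand is mostly degraded. miR-124-3p is the classical miRNA of neurons: it represses genes of non-neuronal cells, such as Ptbp1, an RNA-binding protein that holds back neuronal splicing. miR-9a-5p acts in neural progenitors and in neurons, and its known targets include the transcriptional repressor REST and the nuclear receptor TLX. miR-9a-3p, once called miR-9*, can also be functional and targets CoREST. In the trigeminal ganglion, facial sensory neurons sit among satellite glia, Schwann cells, vessels and resident immune cells.

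The deposited sequences are shown because the members differ in seed and in how unambiguous their reads are. They are written 5′ to 3′ with the seed in capitals:
miR-124-3p: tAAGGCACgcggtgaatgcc
miR-124-5p: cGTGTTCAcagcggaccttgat
miR-9a-5p: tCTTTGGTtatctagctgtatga
miR-9a-3p: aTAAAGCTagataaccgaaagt
miR-9b-5p: tTCGGTTAtctagctttat
The 5 seeds all differ, and 0 other rows of the table share any of them. The miR-124 strands are rich in G and C, at 60% for the 3p strand and 54.5% for the 5p strand. The miR-9 strands hold 31.6% to 34.8% G and C.

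The miR-9a strands lie in 3 RefSeq hairpins (build GRCr8), printed to show that reads cannot be assigned to a locus. The 2 mature strands are in capitals:
Mir9-1: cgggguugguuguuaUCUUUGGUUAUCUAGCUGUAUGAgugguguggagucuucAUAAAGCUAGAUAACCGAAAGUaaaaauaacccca
Mir9-2: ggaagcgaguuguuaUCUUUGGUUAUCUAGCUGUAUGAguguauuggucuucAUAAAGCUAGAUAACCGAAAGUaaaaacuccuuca
Mir9-3: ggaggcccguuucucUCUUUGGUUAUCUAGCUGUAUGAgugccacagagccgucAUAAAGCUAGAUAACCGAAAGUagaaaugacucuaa
Both mature strands are identical in the 3 hairpins, and their loops have 14 to 16 bases. In RefSeq, Mir9-2 lies inside the gene Mir9-2hg and Mir9-3 inside the long non-coding RNA gene Mir9-3hg. The miR-9b hairpins (Mir3597-1 to Mir3597-3) cover the same 3 loci on the opposite strand, over 100% of each Mir9 hairpin. miR-9b-5p is therefore the exact reverse complement of bases 1 to 19 of miR-9a-3p. It also matches bases 3 to 21 of miR-9a-5p with 2 mismatches, T5C and G18T, counted from the 5′ end of miR-9a-5p with its base first. The 2 miR-124 strands had no such near match among the other rows, at 15 or more aligned bases and at most 2 mismatches. The miR-9b-5p row is reported as uncertain, since the labels do not state how the counting separated it from miR-9a.

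Total miRNA counts were 6420434 to 11014970 in CCI-ION libraries and 10084327 to 12560545 in sham libraries. A floor of 3 counts was 0.272 to 0.467 CPM (miRNA counts scaled to 1e+06 per library) in CCI-ION and 0.239 to 0.297 CPM in sham, and floors cover counting error only. All 5 members passed the filter on low counts, as did 463 of 650 miRNAs. The totals on which the authors based their RPM were larger than the miRNA counts: miRNAs made up 49.0% ± 5.87 of them in CCI-ION and 61.8% ± 8.25 in sham (SD, n = 3 each). The sensory neuron miRNAs miR-183, miR-96 and miR-182 were abundant in every library, at a summed 34707 to 45644 CPM in CCI-ION and 35141 to 44703 CPM in sham. The libraries of both groups carry numbers 1 to 3, and same-numbered libraries deviated together, so each result is given by group alone and with the number as a block where that changes the call.

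The members spanned more than 3 orders of magnitude. Levels below are CPM after scaling by edgeR's trimmed mean of M values (TMM). miR-9a-5p ranked 15 to 17 among the 650 miRNAs in every library. miR-9a-3p followed at ranks 111 to 126 in CCI-ION and 102 to 120 in sham, and miR-124-3p at ranks 137 to 146 in CCI-ION and 127 to 128 in sham. miR-124-5p ranked 270 to 284 in CCI-ION and 244 to 272 in sham. miR-9b-5p was last, at ranks 374 to 413 in CCI-ION and 372 to 401 in sham. The order miR-9a-5p, miR-9a-3p, miR-124-3p, miR-124-5p, miR-9b-5p held in 6 of 6 libraries, and neighbours in it did not overlap within either group. The deposited mature sequences have 19 to 23 bases, and levels were not divided by length. Which read lengths were counted is not stated. How strongly each sequence was favoured in library preparation was not tested.

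**Figure D1:**
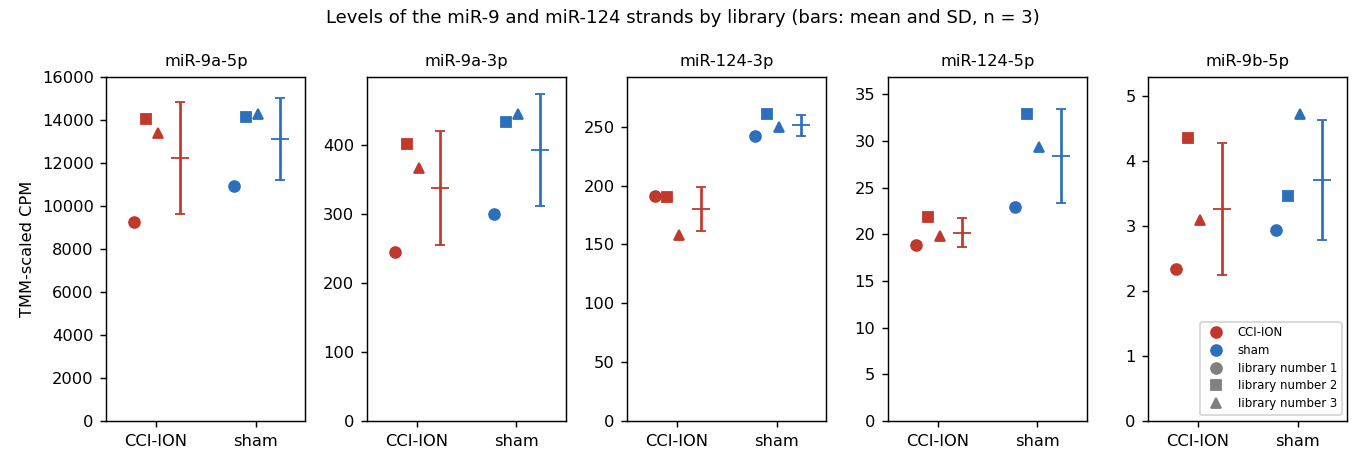
Level of each strand in every library (TMM-scaled CPM, linear axes from 0), with CCI-ION in red and sham in blue, point shapes for library numbers 1 to 3, and bars for the mean and SD (n = 3). The miR-124 strands separate the groups, at 158.2 to 191.3 against 242.3 to 260.8 CPM for miR-124-3p, while both miR-9a strands overlap and are lowest in the libraries numbered 1 of both groups.

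Both miR-124 strands were lower in CCI-ION ganglia than in sham ganglia, by about the same factor. miR-124-3p had 191.3, 190.5 and 158.2 CPM in CCI-ION libraries 1 to 3, against 242.3, 260.8 and 249.9 CPM in sham libraries 1 to 3. Every CCI-ION library lay below every sham library, with CCI-ION library 3 the lowest of all. Means were 180 ± 18.9 CPM in CCI-ION and 251 ± 9.28 CPM in sham (SD, n = 3 each), a ratio of 0.717. By group alone the log2 fold change was -0.48 ± 0.14 (SE), with an edgeR adjusted p = 0.316. With the replicate block it was -0.48 ± 0.11, with an edgeR adjusted p = 0.000927. Within numbers 1, 2 and 3 the log2 differences were -0.34, -0.45 and -0.66. In bulk tissue, fewer neurons and less of a miRNA per neuron cannot be told apart.

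miR-124-5p, the partner strand, had 18.9, 21.9 and 19.8 CPM in CCI-ION libraries 1 to 3, against 22.9, 32.9 and 29.3 CPM in sham libraries 1 to 3. The groups did not overlap, although sham library 1 came within about 1 CPM of the highest CCI-ION library. Means were 20.2 ± 1.54 CPM in CCI-ION and 28.4 ± 5.05 CPM in sham (SD, n = 3 each), a ratio of 0.711. The log2 fold change was -0.49 ± 0.18 by group alone (edgeR adjusted p = 0.432) and -0.47 ± 0.16 with the replicate block (edgeR adjusted p = 0.0425). This strand rests on 136 to 219 reads in CCI-ION libraries and 292 to 323 reads in sham libraries, so counting error alone is 6.76% to 8.57% in CCI-ION and 5.56% to 5.85% in sham.

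Neither miR-9a strand was called. miR-9a-5p had 9272, 14059 and 13388 CPM in CCI-ION libraries 1 to 3, against 10941, 14137 and 14294 CPM in sham libraries 1 to 3. The 2 libraries numbered 1 were the lowest of their groups, and apart from them the 4 remaining libraries lay between 13388 and 14294 CPM. The log2 fold change was -0.10 ± 0.19 (edgeR adjusted p = 0.947) and -0.11 ± 0.09 with the replicate block (edgeR adjusted p = 0.525). Without CCI-ION library 1 it turned to 0.06 by group alone.

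miR-9a-3p had 244.4, 401 and 367.4 CPM in CCI-ION libraries 1 to 3, against 299.9, 433.4 and 445.2 CPM in sham libraries 1 to 3. It shared the pattern of miR-9a-5p, with the lowest values in the libraries numbered 1. It was lower in CCI-ION within all 3 numbers, by differences of -0.30, -0.11 and -0.28 on the log2 scale, as 23.5% of the tested miRNAs were lower within all 3 numbers. The log2 fold change was -0.22 ± 0.24 (edgeR adjusted p = 0.899) and -0.23 ± 0.11 with the replicate block (edgeR adjusted p = 0.186). By group alone it was -0.03 without CCI-ION library 1 and -0.38 without sham library 1, the ends of the range when single libraries were left out.

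miR-9b-5p, the uncertain antisense row, had 2.33, 4.34 and 3.09 CPM in CCI-ION libraries 1 to 3, against 2.93, 3.46 and 4.72 CPM in sham libraries 1 to 3. It rests on 23 to 27 reads in CCI-ION libraries and 34 to 47 reads in sham libraries, and the groups overlapped. Its log2 fold change was -0.20 ± 0.33 (edgeR adjusted p = 0.946) and -0.21 ± 0.30 with the replicate block (edgeR adjusted p = 0.732). There were 3237 to 4327 reads of miR-9a-5p for each of its reads in CCI-ION and 3030 to 4085 in sham. Per read of miR-9b-5p, miR-9a-3p had 92.3 to 118.7 reads in CCI-ION and 94.4 to 125.2 in sham.

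By group alone edgeR called 0 of the 5 members, against 0.648% of all 463 tested miRNAs. By group alone DESeq2 called 0 members, against 1.94% of all tested miRNAs, and limma-voom called 0, against 0.648%. An unadjusted edgeR p under 0.05 was reached by 2 of the 5, both miR-124 strands, and by 9.94% of all tested miRNAs. With the replicate block edgeR called 2 of the 5, both lower, against 5.62% of all tested miRNAs called lower and 11.7% called in either direction. These 2 are the partner strands of miR-124 and are not independent of each other. Both miR-124 strands had no overlap between groups with CCI-ION below sham, which 7.13% of the tested miRNAs also showed. Among the 463 fold changes with the block, 30 miRNAs were more negative than miR-124-3p and 32 more negative than miR-124-5p.

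**Figure D2:**
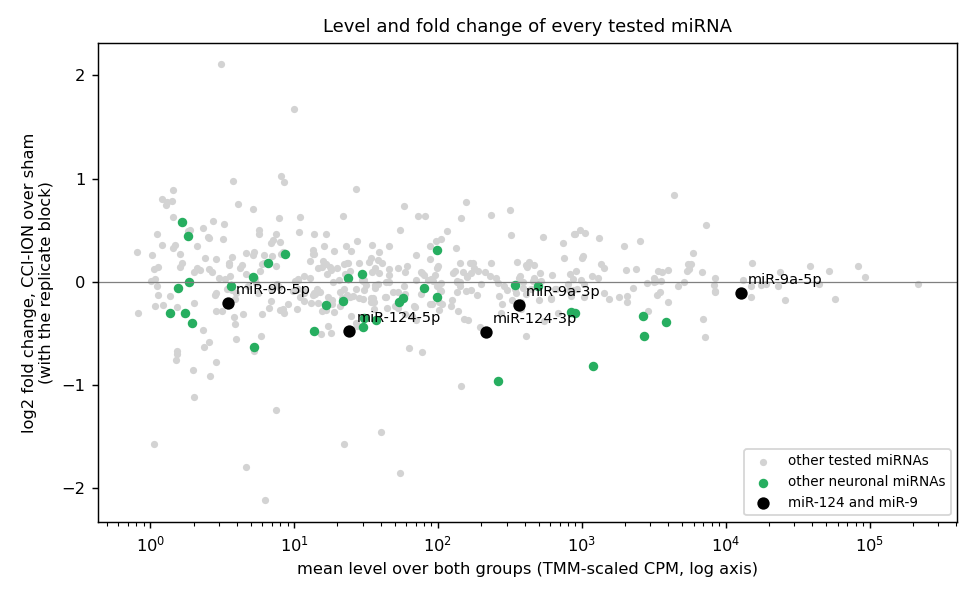
Mean level over both groups (TMM-scaled CPM, log axis) against the log2 fold change of CCI-ION over sham with the replicate block for the 463 tested miRNAs, with the 5 members in black and other neuronal miRNAs in green. The miR-124 strands sit at -0.48 and -0.47 at low and middle levels, and miR-9a-5p sits near 0, at -0.11, among the most abundant miRNAs.

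With the block miR-124-3p was also called lower by DESeq2 (adjusted p = 0.0011), as were 3.89% of all tested miRNAs, and by limma-voom (adjusted p = 0.0232), as were 3.67%. miR-124-5p did not pass, with adjusted p = 0.157 by DESeq2, 0.112 by limma-voom and 0.129 by edgeR under upper quartile scaling, all with the block. When both libraries numbered 2 were left out, the block gave edgeR adjusted p = 0.0569 for miR-124-3p and 0.256 for miR-124-5p. Without those numbered 3 the values were 0.299 and 0.471, at log2 fold changes of -0.40 and -0.44.

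The scale on which libraries are compared moved all 5 members together. On the deposited RPM scale miR-124-3p had 91.5, 84.5 and 85.3 RPM in CCI-ION libraries 1 to 3, against 134.3, 168.2 and 164.3 RPM in sham libraries 1 to 3, a ratio of means of 0.56. miR-9a-5p had 4434, 6238 and 7215 RPM in CCI-ION libraries 1 to 3, against 6062, 9120 and 9402 RPM in sham libraries 1 to 3, a ratio of means of 0.728. The miR-124-3p groups did not overlap on this scale either, as was so for 29.4% of the tested miRNAs with CCI-ION lower, and those of miR-9a-5p still did. On it the median log2 fold change of all tested miRNAs was -0.35 with the block, and 32.8% of them were called lower. Relative to that shift, miR-124-3p at -0.83 ± 0.16 and miR-124-5p at -0.82 ± 0.19 stood further down, and miR-9a-5p at -0.46 ± 0.15 and miR-9a-3p at -0.57 ± 0.16 were then called as well (edgeR adjusted p = 0.000116, 0.00149, 0.0167 and 0.00587).

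**Figure D3:**
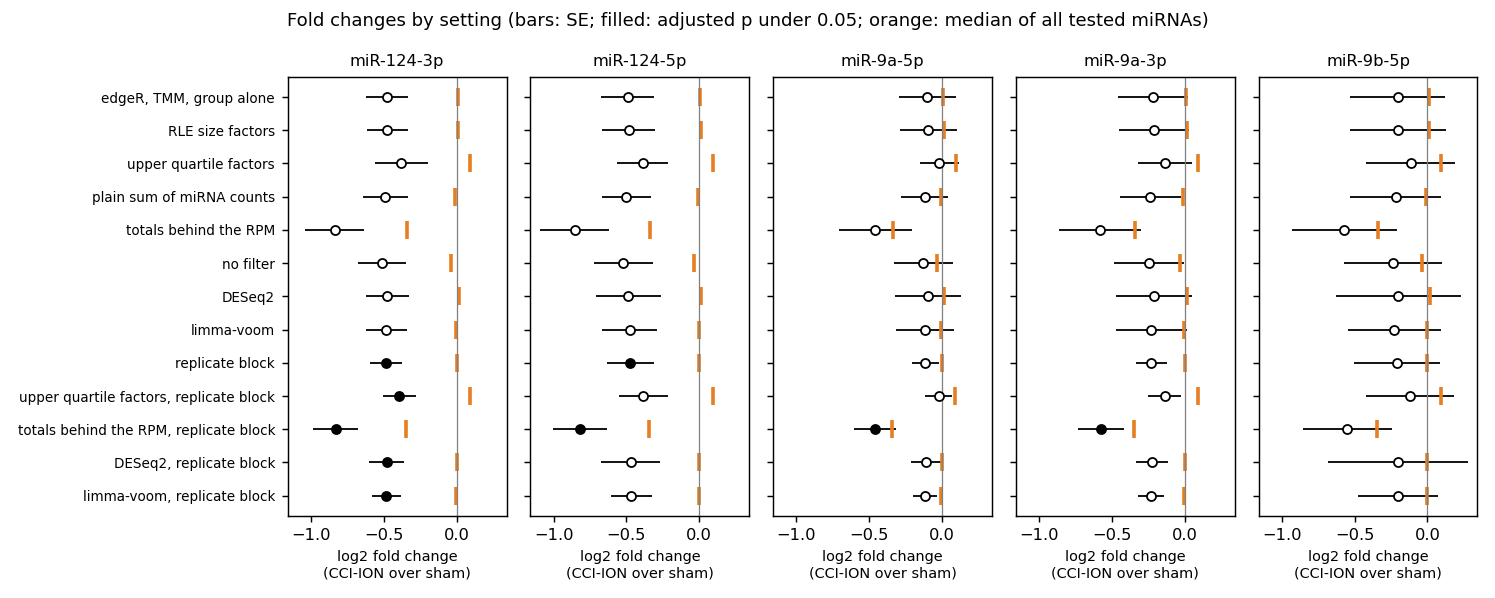
Log2 fold change of CCI-ION over sham for the 5 members under 13 combinations of scaling, filter, tool and block, with bars for the SE, filled points for an adjusted p under 0.05, and orange marks for the median of all tested miRNAs. All values are negative, only miR-124-3p is filled under each of the 5 settings with the block, and scaling to the totals behind the RPM moves the members and the median together.

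Ratios within a library do not depend on library scaling. The strand balance of miR-124 differed between groups by less than the spread between libraries: there were 10.13, 8.71 and 8.0 reads of the 3p strand per 5p read in CCI-ION libraries 1 to 3, against 10.58, 7.93 and 8.52 in sham libraries 1 to 3. The difference of the log2 ratios was -0.01, beside a range of 0.34 within CCI-ION and 0.42 within sham (two-sided exact permutation p = 1). For miR-9a there were 37.9, 35.1 and 36.4 reads of the 5p strand per 3p read in CCI-ION libraries 1 to 3, against 36.5, 32.6 and 32.1 in sham libraries 1 to 3. This ratio was higher in CCI-ION within all 3 numbers, by 0.11 on the log2 scale on average, and the groups overlapped (two-sided exact permutation p = 0.3, adjusted over 5 such tests 0.5).

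Whether miR-124-3p and miR-9a-5p changed by different amounts could not be decided with 3 libraries per group. There were 48.5, 73.8 and 84.6 reads of miR-9a-5p per miR-124-3p read in CCI-ION libraries 1 to 3, against 45.1, 54.2 and 57.2 in sham libraries 1 to 3. The ratio was higher in CCI-ION within all 3 numbers, but CCI-ION library 1 lay among the sham libraries. On the log2 scale miR-124-3p over miR-9a-5p differed by -0.37 (two-sided exact permutation p = 0.3, adjusted 0.5). The smallest p that 3 against 3 allow is 0.1, so this test could not pass the threshold. Within the numbers the exact sign-flip p was 0.25, the smallest that 3 pairs allow.

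**Figure D4:**
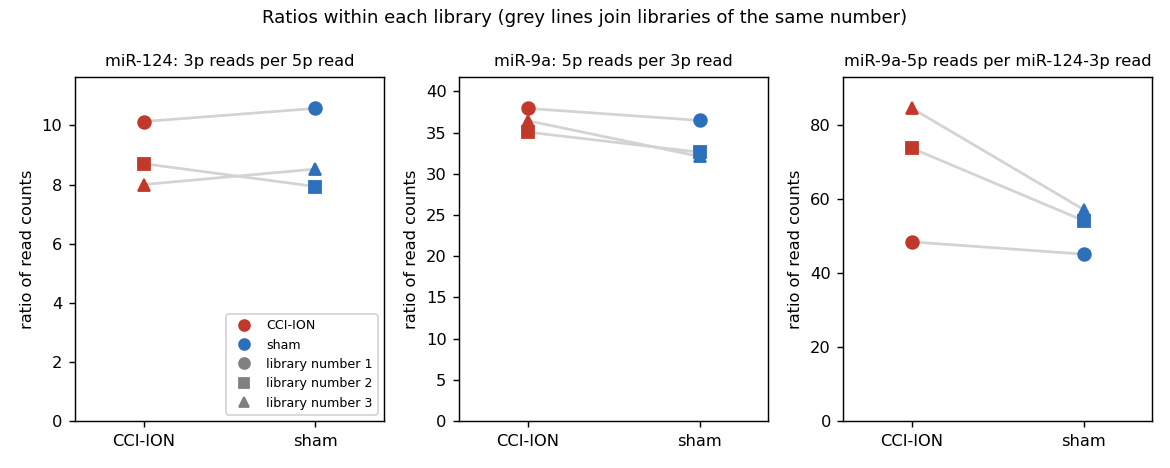
Ratios of read counts within each library for the 2 strands of miR-124, the 2 strands of miR-9a, and miR-9a-5p over miR-124-3p, with CCI-ION left of sham and grey lines joining libraries of the same number. The miR-124 strand ratio lies between 7.93 and 10.58 with no order between groups, while the miR-9a-5p to miR-124-3p ratio is higher in CCI-ION for each number, with a gap that is small in number 1.

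As shares of all miRNA counts, the 2 miR-124 strands together held 0.0221%, 0.0206% and 0.0172% in CCI-ION libraries 1 to 3, against 0.0281%, 0.0285% and 0.0276% in sham libraries 1 to 3. The groups did not overlap (two-sided exact permutation p = 0.1, the smallest that 3 against 3 allow, adjusted over 5 such tests 0.5). The 3 miR-9 rows held 1.0%, 1.4% and 1.33% in CCI-ION libraries 1 to 3, against 1.19%, 1.41% and 1.46% in sham libraries 1 to 3, with overlap (two-sided exact permutation p = 0.5, adjusted 0.625).

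Across the 6 libraries, Pearson's r of log2 CPM was 0.985 between the miR-9a strands and 0.838 between the miR-124 strands. Between a miR-124 strand and a miR-9a strand it ran from 0.158 (miR-124-3p with miR-9a-5p) to 0.726 (miR-124-5p with miR-9a-3p). These are descriptions over 6 libraries that share group and number, and no p is given. The 3 tested miRNAs most like miR-124-3p were miR-138-2-3p (r = 0.994), miR-216b-5p (0.943) and miR-129-2-3p (0.93). The first and last are partner strands of the neuronal miRNAs miR-138-5p and miR-129-5p. Those most like miR-124-5p were the muscle miRNA miR-133c (0.985), miR-3068-5p (0.976) and the neuronal miRNA miR-7a-5p (0.97). miR-133c rests on 8 to 11 reads in CCI-ION libraries and 18 to 25 reads in sham libraries. Those most like miR-9a-5p were miR-384-5p (0.995), miR-384-3p (0.995) and miR-592 (0.987). Those most like miR-9a-3p were the muscle miRNA miR-1b (0.987), miR-154-5p (0.987) and miR-384-3p (0.979). An r above 0.95 was reached by 1 of 458 other miRNAs for miR-124-3p and by 14 for miR-9a-5p. Like miR-9a-5p, miR-384-5p was lowest in the libraries numbered 1. It had 63.9, 148.3 and 145.7 CPM in CCI-ION libraries 1 to 3, against 89.1, 148.3 and 152.1 CPM in sham libraries 1 to 3. What the likeness of miR-384-5p to miR-9a-5p rests on was not tested.

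Other neuronal miRNAs were read from a list of 22 stems, such as miR-128, miR-129, miR-138 and miR-218a. Of 34 tested, edgeR with the replicate block called 6 lower and 0 higher, against 5.62% and 6.05% of all tested miRNAs. The 6 called lower were miR-128-3p, miR-129-5p, miR-138-5p, miR-218a-5p, miR-7a-5p and miR-7b. Some members had a positive log2 fold change with the block and were not called, such as miR-487b-5p (0.58 ± 0.36) and miR-487b-3p (0.31 ± 0.12). By group alone 25 of the 34 were negative, edgeR called 0 of the 34 and DESeq2 called 1. The list median was -0.19 with the block, where that of all tested miRNAs was 0.00. Under upper quartile scaling with the block 4 of the list were called lower and 1 higher, against 17 and 43 of all 463 tested miRNAs. The largest falls were those of miR-7b (log2 fold change -0.96 ± 0.12, edgeR adjusted p = 1.6e-08) and miR-129-5p (-0.82 ± 0.11, edgeR adjusted p = 3.81e-08), both with the block. By name, miR-7b and miR-7a-5p are of the same family, as are miR-218a-5p and miR-218b. How the counting separated such rows is not stated, so their counts are uncertain. The fall of miR-124-3p was similar in size to that of miR-128-3p (-0.39 ± 0.10, edgeR adjusted p = 0.00244) and miR-7a-5p (-0.52 ± 0.10, edgeR adjusted p = 6.57e-05), both with the block. The summed level of the list was 11849 to 12214 CPM in CCI-ION and 15366 to 16346 CPM in sham, with no overlap. Without the libraries numbered 2 the block called 4 members of the list, against 31 of all 464 then tested. Without those numbered 3 it called 0, against 5 of all 466 then tested. This list was chosen with earlier results of these data known and is not independent evidence.

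Of the 4 tested sensory neuron miRNAs 0 were called by edgeR in either fit, nor by DESeq2 or limma-voom, and 0 had an unadjusted edgeR p under 0.05 by group alone. The most abundant, miR-182 and miR-183-5p, stood at log2 fold changes of 0.09 ± 0.09 and -0.14 ± 0.09 with the block. With the totals behind the RPM and the block, 2 of the 4 were called lower, as were 32.8% of all tested miRNAs. Their summed level overlapped between groups, unlike that of the miR-124 strands. No test of the difference between these lists was made.

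The levels of markers of other cells stand beside those of miR-124. Leukocyte miRNAs summed to 366.4 to 393.8 CPM in CCI-ION and 280.6 to 314.3 CPM in sham without overlap. With the block edgeR called 3 of 8 tested higher, miR-142-3p, miR-155-5p and miR-342-3p, against 6.05% of all tested miRNAs. By group alone edgeR, DESeq2 and limma-voom called 0 of the 8, and 2 had an unadjusted edgeR p under 0.05. Leaving out number 2 or number 3 from the blocked fit left 0 called. Their most abundant member, miR-150-5p, stood at a log2 fold change of 0.18 ± 0.11 with the block and was not called. With the totals behind the RPM and the block, 0 of the 8 were called higher. Skeletal muscle miRNAs summed to 3689 to 9061 CPM in CCI-ION and 5611 to 11314 CPM in sham, with overlap. Their median log2 fold change was -0.52 with the block, lower than the -0.19 of the other neuronal list. By group alone 8 of the 8 tested were negative. With the block edgeR called 2 of 8 lower, miR-1b and miR-133a-3p, against 5.62% of all tested miRNAs, while miR-499-5p (-0.17 ± 0.11) was not called. By group alone edgeR, DESeq2 and limma-voom called 0 of the 8, and 2 had an unadjusted edgeR p under 0.05, miR-133a-3p and miR-133c. miR-1b stood at -0.51 ± 0.39 by group alone (edgeR adjusted p = 0.833). Leaving out number 3 from the blocked fit left 0 called. The levels of miR-1b were 3234, 8218 and 6265 CPM in CCI-ION libraries 1 to 3, against 5026, 10480 and 9650 CPM in sham libraries 1 to 3, and like miR-9a they were lowest in the libraries numbered 1. Both muscle miRNAs called with the block belong to families with near-identical members in the table (miR-1-3p, miR-133b-3p and miR-133c), so their counts are uncertain.

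In the list of myelinating glia miRNAs edgeR called 1 of 7 higher in both fits, miR-219a-1-3p, where 0.648% of all tested miRNAs were called by group alone and 6.05% were called higher with the block. miR-219a-1-3p had 15.2 ± 2.08 CPM in CCI-ION and 4.77 ± 1.08 CPM in sham (SD, n = 3 each), and miR-219a-5p did not pass the filter. By group alone edgeR called 0 of the list with upper quartile scaling or plain sums. It also called 0 by group alone without library 2 or 3 of either group. With the block it called 1 higher when any 1 number was left out. The leading members, miR-338-5p (log2 fold change -0.20 ± 0.10 with the block) and miR-204-5p (0.12 ± 0.10), did not pass. This list summed to 9070 to 10420 CPM in CCI-ION and 9539 to 10793 CPM in sham. Of 7 fibroblast and mural markers edgeR with the block called 1 higher, miR-199a-5p, against 6.05% of all tested miRNAs, while miR-143-3p (-0.04 ± 0.09) and miR-199a-3p (0.28 ± 0.10) were not called. It called 0 of them when any 1 number was left out, limma-voom with the block called 0, and by group alone edgeR, DESeq2 and limma-voom called 0, with 0 at an unadjusted edgeR p under 0.05. With the block, DESeq2 called 1 higher and edgeR under upper quartile scaling 3, against 26 and 43 of all 463 tested miRNAs. With the totals behind the RPM and the block 1 was called lower, against 152 of all 463. These markers summed to 26100 to 42467 CPM in CCI-ION and 25113 to 34898 CPM in sham. Of 10 epithelial markers edgeR with the block called 1 higher, miR-205, near the 6.05% of all tested miRNAs. It did not call miR-375-3p (-1.01 ± 0.30, edgeR adjusted p = 0.213), which DESeq2 and limma-voom with the block both called lower. By group alone edgeR and limma-voom called 0 of the 10 and DESeq2 called miR-205, the 1 member with an unadjusted edgeR p under 0.05. Leaving out number 3 from the blocked fit left 0 called. The epithelial markers summed to 345 to 431.3 CPM in CCI-ION and 363.2 to 460.8 CPM in sham. Of 4 erythroid markers (led by miR-486 and miR-451-5p, 407.7 to 799 CPM in CCI-ION and 285.4 to 771.1 CPM in sham) and 2 endothelial markers (miR-126a-3p and miR-126a-5p, 10952 to 15330 CPM in CCI-ION and 10373 to 14748 CPM in sham), edgeR called 0 in either fit, DESeq2 called 0, and 0 had an unadjusted edgeR p under 0.05 by group alone. No row of these lists was at 0 in all 6 libraries. The part of these cells in the levels of miR-124 and miR-9 was not tested.

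**Figure D5:**
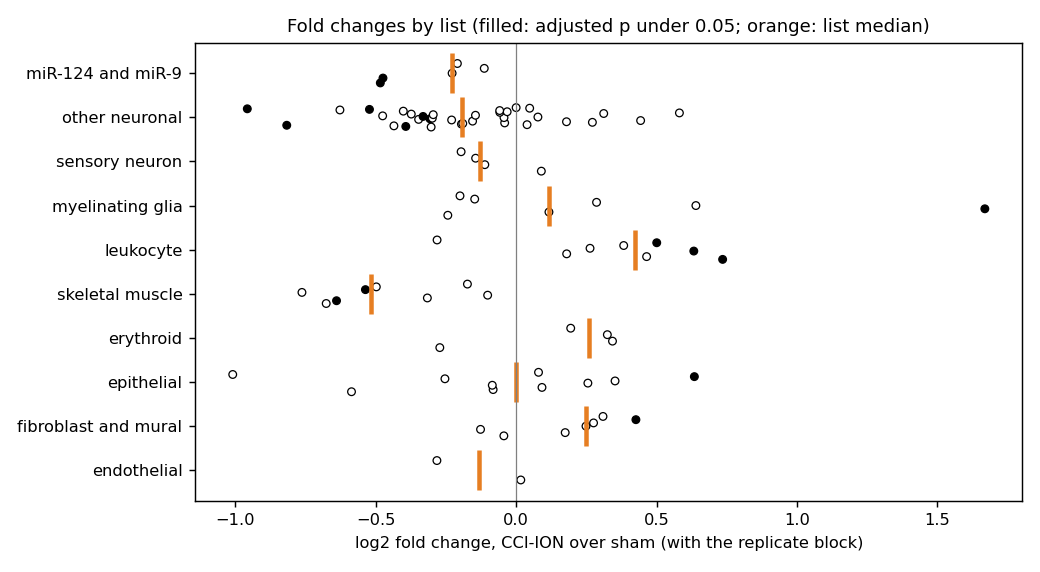
Log2 fold change of CCI-ION over sham with the replicate block for every tested member of each list, filled where the edgeR adjusted p is under 0.05, with orange marks for list medians. The 2 miR-124 strands at -0.48 and -0.47 are filled beside 6 filled points of the other neuronal list, and the leukocyte list has its 3 filled points above 0.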

How the data were processed

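Small RNA counts were available for 3 CCI-ION and 3 sham libraries, with groups and numbers from the sample titles. The authors deposited raw counts per mature miRNA and RPM values per library, made with cutadapt 1.14 and Bowtie 1.1.1 on rn6, per the submitters' processing notes. No source names the counter or annotation. Multiplying RPM by 1 constant per library returned whole reads, within 0.01 read, for 100% of the deposited values. Counts were fitted with edgeR 4.0.16 in R 4.3.3 (filterByExpr, TMM, robust quasi-likelihood test), with Benjamini-Hochberg adjustment over 463 miRNAs and a threshold of 0.05. Alternative tools were limma-voom (limma 3.58.1) and DESeq2 (1.42.0). For edgeR, the SE is the absolute log2 fold change divided by the square root of the test's F statistic. Those of DESeq2 and limma-voom come from their own fits. The fits were tested on simulated data with changes larger than those of the members and the same spread for every miRNA. Calls for changes as small as those of the members were not tested in this way. Ratios and shares were compared with exact permutation tests, 0.5 being added to counts in log ratios. With 3 libraries per group these tests cannot give a p under 0.1.

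Deviations of same-numbered libraries from their group means in log2 CPM correlated at 0.664, 0.591 and 0.457, so the numbers were taken to pair the libraries. That pairing comes from the data, not from the labels. Libraries of different numbers correlated at -0.614 to 0.166. Deviations sum to 0 within each group, so these values are not independent. The totals behind the RPM also differed by number. They were 24259518 (CCI-ION) and 24025572 (sham) in the libraries numbered 1. The others had 13793797 to 14009528 in CCI-ION and 15144660 to 15228984 in sham. The block leaves 2 residual degrees of freedom. The members, lists and tests were chosen with earlier results of these data known. Named miRNAs were the members, the 2 most abundant members of each list, called members of the other neuronal and sensory neuron lists, and the 3 miRNAs most like each of 4 members; called members of the remaining lists were named after their values were seen. Mature sequences come from the deposited table and hairpins from RefSeq (GRCr8); 3 of the 5 members matched RefSeq entries, with identical sequences.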

Additional observations from a re-analysis of the deposited data

How the results depend on the processing

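The log2 fold change of miR-124-3p was negative under every setting run, and past the threshold with the replicate block: -0.48 with edgeR, DESeq2 and limma-voom, -0.39 with upper quartile scaling and -0.83 with the totals behind the RPM. miR-124-5p passed with the block (-0.47) and with those totals and the block (-0.82), as did miR-9a-5p (-0.46) and miR-9a-3p (-0.57) with totals and block together. Leaving out single libraries or numbers gave -0.56 to -0.38 for miR-124-3p, -0.63 to -0.38 for miR-124-5p, -0.22 to 0.063 for miR-9a-5p, -0.38 to -0.03 for miR-9a-3p and -0.46 to 0.0086 for miR-9b-5p (-0.44 to 0.0086 by group alone). By group alone, miR-9a-5p turned positive without CCI-ION library 1 (0.063), and miR-9b-5p without that library (0.0037) or sham library 3 (0.0086). With the block, leaving out number 1 gave -0.56 for miR-124-3p and -0.58 for miR-124-5p, both called; leaving out number 2 or 3 ended both calls. The difference between CCI-ION and sham in the log2 strand ratio of miR-124 turned positive without CCI-ION library 2 (0.0082) or 3 (0.07) or sham library 1 (0.11), and ranged from -0.10 to 0.11. The difference in the miR-9 share turned to 0.011 percentage points without CCI-ION library 1, within a range of -0.19 to 0.011.

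Over the whole table edgeR called 3 miRNAs by group alone, 6 with the totals behind the RPM, 6 with no filter and 9 by DESeq2. With the block the calls were 54 by edgeR, 158 with those totals, 60 with upper quartile scaling, 44 by DESeq2 and 39 by limma-voom. Leaving out single libraries gave 1 to 7, and leaving out a number with the block gave 45, 31 and 5. Of the other neuronal list 0 were called by group alone, 1 each with those totals, no filter and DESeq2, and 6 with the block (18 with totals, 5 with upper quartile scaling, 5 by DESeq2, 4 by limma-voom). Without single libraries 0 to 1 were called, and 6, 4 and 0 with the block without numbers 1, 2 and 3. Of the 8 remaining lists 1 was called by group alone, 0 with upper quartile scaling or plain sums, 2 by DESeq2, and 8 with the block (16 with totals, 10 with upper quartile scaling, 9 by DESeq2, 7 by limma-voom). Without single libraries 0 to 2 were called, and 8, 5 and 1 with the block without numbers 1, 2 and 3. The cause of these differences was not tested. Depth limits miR-9b-5p most, with a counting error of 14.6% to 20.9%.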
